A study of Mus musculus with 9 samples.

Results

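The genes described here carry calcium across the epithelium of the small intestine, carry magnesium in the case of Trpm6, or make and break down the active form of vitamin D. They were chosen by name: S100g, Trpv6, Trpv5, Atp2b1, Cyp24a1, Cyp27b1, Slc8a1 and Trpm6, each through every probe set annotated to exactly 1 of these 8 symbols. The choice was made with earlier results of these data known. A probe set is a group of short probes on the array that together measure 1 transcript. The rule found 14 probe sets for 7 of the 8 genes, out of 18193 genes and 45037 probe sets besides the array's controls, and no probe set was matched to Trpv5, which is not analysed here. Of the 14, 9 probe sets of 5 genes passed the filter on dim probe sets and were tested. The other 5 probe sets, including all those of Cyp24a1 and Cyp27b1, lay too low to be tested.

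Total RNA was measured in control jejunum (Gata4loxP/+VilCre), mutant jejunum (Gata4loxP/-VilCre) and control ileum (Gata4loxP/+VilCre), with 3 adult male mice aged 6 to 8 weeks and 3 arrays in each group. Every mouse, control or mutant, carried 1 copy of Gata4 flanked by loxP sites and a Cre recombinase transgene under the villin promoter, which is active in intestinal epithelium. Gata4 encodes a transcription factor that binds GATA motifs in the proximal small intestine. The groups of jejunum therefore differed in the second copy, wild type in controls and null in mutants. Jejunum was taken 10 cm beyond the pylorus and ileum 1 cm before the cecum, from separate mice, and the sources used here do not say which wall layers were kept.

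Calcium crosses an enterocyte in 3 steps. It enters through the apical channel Trpv6, is carried through the cell by S100g (calbindin-D9k, a small cytosolic protein that binds calcium), and leaves at the basolateral side through the calcium pump Atp2b1 and the sodium-calcium exchanger Slc8a1. Active vitamin D, made by the hydroxylase Cyp27b1 and broken down by the hydroxylase Cyp24a1, acts through the receptor Vdr and is known to raise Trpv6 and S100g, whose RNA is highest in the duodenum. Trpv5 is the close relative of Trpv6 best known from the kidney, and Trpm6 is a magnesium channel of distal gut and kidney. Calcium also passes between cells, through tight junctions whose claudins set which ions cross.

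The stretches of DNA just before the start sites of S100g and Trpm6 are shown because these members rose in the mutant jejunum. Capitals mark matches to AGGTCA or to GGGTCA or to GGTTCA or to AGTTCA on either strand, which are forms of the core word bound by the vitamin D receptor and by several other nuclear receptors.
S100g, chrX:162964600-162964849, minus strand, GRCm38.p6: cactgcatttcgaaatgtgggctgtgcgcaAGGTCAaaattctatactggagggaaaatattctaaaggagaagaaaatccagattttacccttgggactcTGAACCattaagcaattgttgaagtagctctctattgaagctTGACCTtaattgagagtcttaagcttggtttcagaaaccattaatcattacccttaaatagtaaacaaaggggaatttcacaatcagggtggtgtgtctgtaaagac
Trpm6, chr19:18749480-18749729, plus strand, GRCm38.p6: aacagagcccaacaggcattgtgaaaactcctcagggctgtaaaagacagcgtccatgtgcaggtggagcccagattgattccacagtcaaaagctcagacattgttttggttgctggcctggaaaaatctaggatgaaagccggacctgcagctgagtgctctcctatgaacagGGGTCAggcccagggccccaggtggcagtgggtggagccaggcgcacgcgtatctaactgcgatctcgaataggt
Both stretches are RefSeq sequence, run 5′ to 3′ along the gene and end at the base before the start site. The S100g stretch holds 3 marked words and the Trpm6 stretch 1. Among the 8 such stretches that matched 7 of the 8 genes (none for Cyp24a1), 3 held a word of this set, the third being that of Trpv6. Of all 32851 stretches of 250 bases, 38.6% held at least 1 such word, and how many held 3 was not counted. A GATA word (AGATAA or TGATAA or AGATAG or TGATAG, either strand) was found in the stretches of Slc8a1 and Trpv5, against 26.5% of all stretches, and not in those of S100g and Trpm6. The word CATAAA, a caudal-type word, was found in that of Trpv5, against 10.8% of all. These matches describe the letters in the window only.

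Levels are given for arrays 1, 2 and 3 of a group in that order. They are quantile-normalized log2(intensity + 16), on which an intensity of 0 gives about 4 and the filter on dim probe sets lies at 4.95. Groups are compared within 1 probe set at a time, and genes are not compared with each other. A change was called at an adjusted p under 0.05. The trimmed mean intensity (2% left out at each end) ran from 150 to 172 on control jejunum arrays, from 148 to 180 on mutant jejunum arrays and from 96.8 to 122 on control ileum arrays, so that gut segment cannot be told apart from array brightness. Of all 9 arrays, mutant jejunum 3 had the lowest array weight, 0.384, and its score of -55.8 on principal component 2 was far from the 12.03 and 7.06 of its group. Both results called in the mutant are therefore given with and without it. Gata4 RNA itself ran from 9.49 to 9.57 in control and from 9.38 to 9.61 in mutant jejunum on its brighter probe set (difference -0.02, adjusted p = 0.959), and from 5.20 to 5.64 in ileum. Its dimmer probe set read 0.65 higher in mutant than in control jejunum (95% interval 0.12 to 1.19, adjusted p = 0.195), which was not called. Whether the 2 Gata4 probe sets lie inside the deleted stretch is not known here, so they are no check of the genotype labels. Vil1, the actin-bundling protein villin of the brush border, averaged 12.94 ± 0.04 over control jejunum arrays, 12.83 ± 0.17 over mutant arrays and 12.88 ± 0.04 over ileal arrays (SD, n = 3 each). The other 6 enterocyte markers did not all stay level in mutant against control jejunum, and none was called. The alkaline phosphatase Alpi, the glucose transporter Slc2a2 and Anpep read -0.51, -1.08 and -0.20 with no overlap (adjusted p = 0.179, 0.264 and 0.225). Cdh1 read 0.27 higher, also with no overlap (adjusted p = 0.137), while Fabp2 and Krt20 differed by -0.04 and 0.01. Over all tested probe sets, 22.5% did not overlap in this comparison. In control ileum Alpi and Slc2a2 were lower by a call (-0.82 and -6.96, adjusted p = 0.0116 and 6.14e-06). Cdh1 was higher there by a call (0.38, adjusted p = 0.0154). In whole-tissue RNA, fewer cells of a type and less RNA per cell cannot be told apart.

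Counted over the 9 tested member probe sets, 2 rose and none fell in mutant against control jejunum, where 3.56% of all 29307 tested probe sets were called and 1.74% were called higher. The members' median difference was 0.47, against 0.00 over all tested. The 2 groups did not overlap for 4 of the 9, against 22.5% of all. In control ileum against control jejunum 5 were higher and none lower, with 16.2% of all probe sets called and 8.36% called higher, and the medians were 0.88 and 0.01. There the groups did not overlap for 5 of the 9, against 37.4% of all. In mutant jejunum against control ileum 1 was higher and none lower, with 2.65% of all called and 1.39% called higher, and medians of -0.44 and -0.01. These groups did not overlap for 5 of the 9, against 20.6% of all. The 5 ileal calls come from 2 genes, so these shares are counts of probe sets and not of independent genes. Since the members were chosen with earlier results of these data known, a count or median above the background is no test of the list. In mutant against control jejunum no member stayed called without control jejunum 2 or mutant jejunum 2, and 1 stayed called without control jejunum 3 or mutant jejunum 1. In mutant jejunum against control ileum none stayed called without mutant jejunum 1, control ileum 1 or control ileum 2.

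S100g, the calcium carrier of the cytosol, rose in the mutant jejunum to a level above both control segments. On its only probe set (1448964_at) the control jejunum arrays read 8.51, 7.40 and 6.71. The mutant arrays read 11.08, 11.18 and 8.77, and the ileal arrays 6.63, 7.43 and 7.23. All mutant arrays lay above all control arrays, but the third mutant array lay close to the first control jejunum array, and the other 2 mutant arrays lay far above both. In unscaled intensity these neighbours were at 423 and 407, whereas mutant jejunum 1 and 2 were at 2690 and 2960.

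The S100g group means were 7.54 ± 0.91 (control jejunum), 10.34 ± 1.36 (mutant jejunum) and 7.10 ± 0.42 (control ileum; SD, n = 3 each). It rose by 2.80 on the log2 scale in mutant against control jejunum (SE 0.60, 95% interval 1.49 to 4.12, adjusted p = 0.0288), which is 6.98-fold on this scale. Without mutant jejunum 3 the rise was 3.59 (adjusted p = 0.00179). Dropping control jejunum 2 or 3 ended the call (2.73 with adjusted p = 0.106 and 2.39 with adjusted p = 0.124). So did dropping mutant jejunum 1 or 2 (2.44 with adjusted p = 0.0841 and 2.38 with adjusted p = 0.112), and so did fitting only these 2 groups (2.80 with adjusted p = 0.0596). Against control ileum, S100g was higher in the mutant by 3.25 (SE 0.60, 95% interval 1.93 to 4.56, adjusted p = 0.0200). Dropping mutant jejunum 1 or 2 ended this second call (2.88 with adjusted p = 0.0792 and 2.83 with adjusted p = 0.0632), as did dropping control ileum 1 or 2 (3.01 with adjusted p = 0.0624 and 3.41 with adjusted p = 0.0606). Control ileum and control jejunum did not differ beyond their spread in S100g (-0.44, 95% interval -1.76 to 0.87, adjusted p = 0.660), and the sign turned without control jejunum 1 (0.04). The order of the groups was thus mutant jejunum first, followed by control jejunum and control ileum, which could not be separated.

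**Figure D1:**
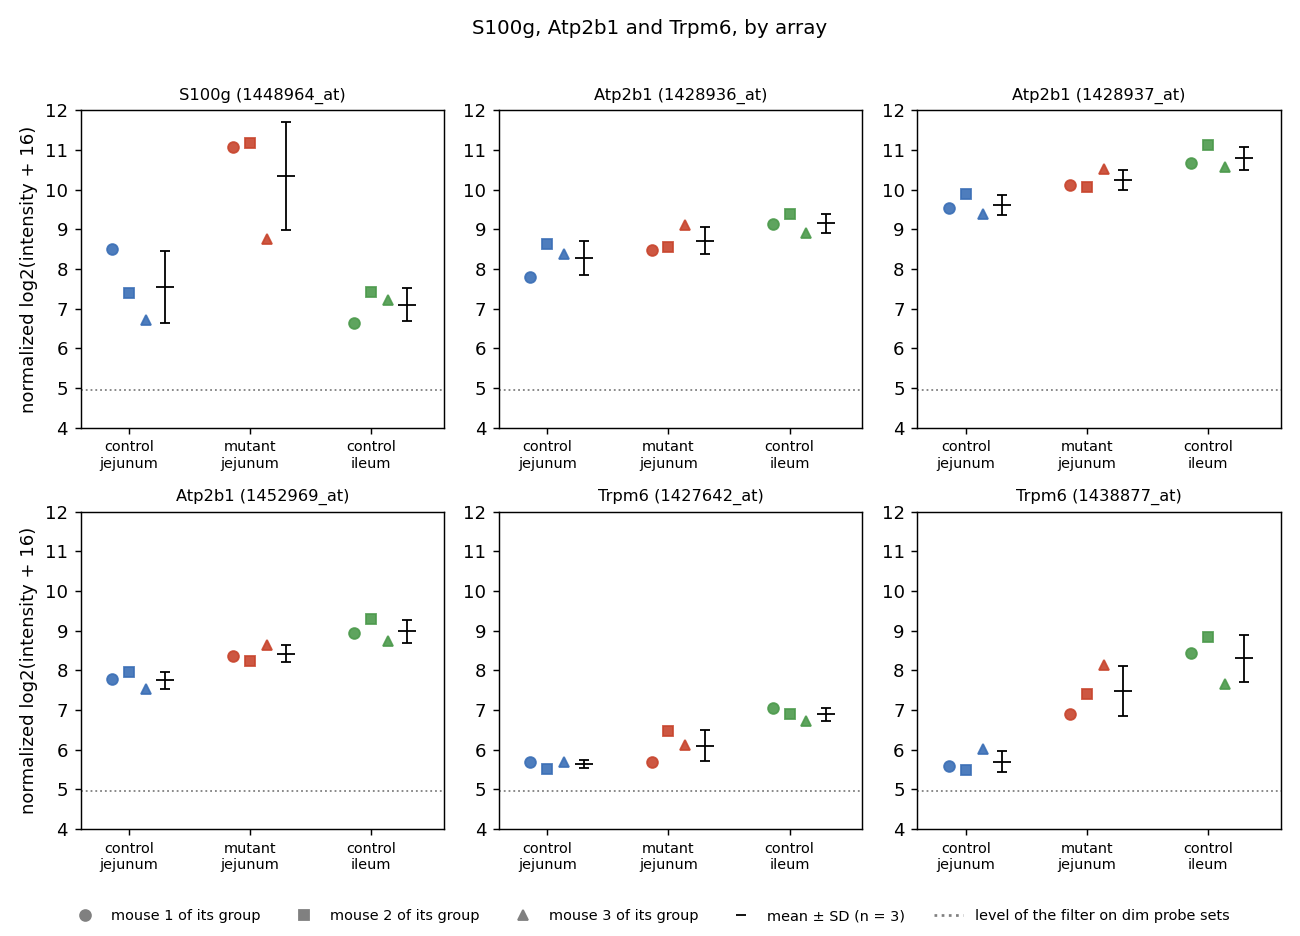
Normalized log2(intensity + 16) of S100g, Atp2b1 and Trpm6 on each of the 9 arrays, 1 panel per probe set, with points for mice, bars for the mean ± SD of each group (n = 3) and a dotted line at the filter level of 4.95. S100g is highest in mutant jejunum, with mutant mouse 3 at 8.77 close to control jejunum mouse 1 at 8.51. The means of Atp2b1 and Trpm6 are highest in control ileum, but no probe set of theirs was called between control ileum and mutant jejunum.

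Trpm6, the magnesium channel, was low in control jejunum, higher in mutant jejunum on 1 of its 2 probe sets, and highest in control ileum. The brighter probe set (1438877_at) read 5.60, 5.49 and 6.01 on the control jejunum arrays. It read 6.90, 7.40 and 8.14 on the mutant arrays and 8.43, 8.83 and 7.66 on the ileal arrays. Mutant and control jejunum did not overlap, while mutant jejunum 3 reached into the range of the ileum. This probe set rose by 1.78 in mutant against control jejunum (SE 0.33, 95% interval 1.05 to 2.52, adjusted p = 0.0156). Without mutant jejunum 3 the rise was 1.45 (adjusted p = 0.0387). Dropping control jejunum 2 (1.67 with adjusted p = 0.0718) or mutant jejunum 2 (1.82 with adjusted p = 0.0562) ended the call. Control ileum exceeded control jejunum by 2.61 (SE 0.33, adjusted p = 0.000494). The mutant lay below control ileum by a difference that was not called (-0.82, 95% interval -1.56 to -0.09, adjusted p = 0.249).

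The dimmer Trpm6 probe set (1427642_at) read 5.68, 5.51 and 5.70 on control jejunum arrays, 5.69, 6.47 and 6.13 on mutant arrays, and 7.06, 6.89 and 6.72 on ileal arrays. Here the first mutant array lay within the range of control jejunum, and all mutant arrays lay below all ileum arrays. The mutant difference was 0.47 (95% interval 0.03 to 0.90, adjusted p = 0.260) and was not called, whereas control ileum exceeded control jejunum by 1.26 (SE 0.20, adjusted p = 0.00164). The difference of the mutant from control ileum was -0.79 (adjusted p = 0.0615). It was called in 3 of 21 settings: without mutant jejunum 2 (-0.98, adjusted p = 0.0390), with trimmed mean scaling (-0.87, adjusted p = 0.0428) and with a pseudocount of 64 (-0.51, adjusted p = 0.0497). Over the 21 settings this difference ran from -0.98 to -0.38, with adjusted p up to 0.184. With both probe sets averaged, Trpm6 rose by 1.12 in the mutant (adjusted p = 0.0244). Averaged in the same way, it stood 1.93 higher in ileum than in jejunum (adjusted p = 0.000396). Because these levels are low, the pseudocount sets much of the fold: with 64 in place of 16, the brighter probe set gave 1.19 in the mutant.

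Atp2b1, the basolateral calcium pump, was higher in control ileum than in control jejunum on all 3 of its probe sets, and the mutant jejunum had intermediate means under quantile normalization. With no scaling the mutant did not lie below the ileum on 2 of the 3 (1428936_at 0.12 and 1428937_at 0.07 in mutant minus ileum), and on 1452969_at the difference was -0.02. The annotation ties the 3 probe sets to the same source sequence, so they are not independent measurements. The brightest (1428937_at) read 9.55, 9.88 and 9.40 on control jejunum arrays, 10.11, 10.08 and 10.53 on mutant arrays, and 10.67, 11.13 and 10.58 on ileal arrays. The 3 groups did not overlap on this probe set. Control ileum exceeded control jejunum by 1.18 (SE 0.18, 95% interval 0.78 to 1.58, adjusted p = 0.00151).

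The dimmest Atp2b1 probe set (1452969_at) showed the same order without overlap, with means of 7.75 ± 0.21 (control jejunum), 8.42 ± 0.21 (mutant jejunum) and 8.99 ± 0.29 (control ileum; SD, n = 3 each). Its ileal difference was 1.23 (SE 0.18, adjusted p = 0.00108). The middle one (1428936_at) had means of 8.28 ± 0.43, 8.71 ± 0.35 and 9.15 ± 0.24 (SD, n = 3) in that order, and its mutant arrays overlapped both control groups. Its ileal difference was 0.88 (adjusted p = 0.0269), a call that dropping control jejunum 1 or 3 ended (0.64 with adjusted p = 0.0808 and 0.93 with adjusted p = 0.0593), as did dropping control ileum 1 or 2 (0.88 with adjusted p = 0.0634 and 0.75 with adjusted p = 0.0969).

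Between mutant and control jejunum no Atp2b1 probe set was called. The differences were 0.63 (95% interval 0.23 to 1.03, adjusted p = 0.0939), 0.66 (0.27 to 1.06, adjusted p = 0.0745) and 0.44 (-0.08 to 0.95, adjusted p = 0.380) for the brightest, dimmest and middle probe sets. Median centring of the arrays in place of quantile normalization called the first 2 of them (0.75 with adjusted p = 0.0385 and 0.76 with adjusted p = 0.0462). The mutant was not separated from control ileum either (-0.55, -0.57 and -0.44 in the same order, adjusted p = 0.150, 0.130 and 0.390), although array weights called the first 2 (-0.74 with adjusted p = 0.0284 and -0.75 with adjusted p = 0.0281). In the order of Atp2b1 levels, then, only its outer neighbours, control jejunum and control ileum, differed by a call.

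Mutant jejunum 3 did not hold the same place for all members. It was the lowest mutant array for S100g (8.77, against 11.08 and 11.18). For Atp2b1 it was the highest mutant array on all 3 probe sets, at 10.53 against 10.11 and 10.08 on the brightest. For the brighter Trpm6 probe set it was again the highest, at 8.14 against 6.90 and 7.40.

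The ileal differences of Trpm6 and Atp2b1 depend on the scaling between arrays. With no scaling, all tested probe sets shifted by a median of -0.40 in control ileum against control jejunum. Relative to that shift Trpm6 and Atp2b1 were still higher in ileum. The unscaled differences were 2.12 and 0.82 for the brighter and dimmer Trpm6 probe sets (adjusted p = 0.000231 and 0.00886). For Atp2b1 they were 0.63, 0.72 and 0.36 for the brightest, dimmest and middle probe sets (adjusted p = 0.0235, 0.0146 and 0.215). The S100g difference was -0.88 there (adjusted p = 0.256). In mutant against control jejunum the median shift was 0.00 with no scaling, and S100g and the brighter Trpm6 probe set gave 2.89 and 1.79.

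Smooth muscle markers moved with the ileal comparison. Of 8 listed and measured (Acta2, Actg2, Myh11, Tagln, Des, Cnn1, Mylk and Synm), 7 were higher in control ileum than in control jejunum, and their mean level per array ran from 10.46 to 10.89 in control ileum against 9.41 to 10.05 in control jejunum. That count was 4 without control jejunum 3 and 1 with no scaling. In mutant jejunum the mean level ran from 9.12 to 9.82, none of the 8 was called against control jejunum, and 7 were called lower than in control ileum (2 without mutant jejunum 1 or control ileum 2, 4 without control ileum 1, and 3 with no scaling). The part of smooth muscle in the differences of Atp2b1, Trpm6 and S100g that involve control ileum was not tested. Of the 7 enterocyte markers, none was called in mutant against control jejunum. In control ileum 1 was higher and 2 were lower than in control jejunum. Their mean level per array was 12.71 to 12.75 in control jejunum, 12.36 to 12.68 in mutant jejunum and 11.42 to 11.87 in ileum. The lower ileal mean comes mostly from Slc2a2, with group means of 12.21, 11.12 and 5.24 in that order. In ileum against control jejunum, Vil1, Fabp2, Krt20 and Anpep differed by -0.06, -0.09, -0.15 and 0.15 and were not called. Alpi was called lower there (-0.82) and Cdh1 higher (0.38).

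Some markers of other cells moved as well. Beside these counts, 17.9% of all measured genes were called in control ileum against control jejunum and 3.67% in mutant jejunum against control ileum. The ileal counts of T cell, stroma and vessel, and myeloid markers lay near the first share. Of 6 measured markers of enteric neurons and glia, 2 (Elavl4 and Uchl1) were higher in control ileum than in control jejunum and 3 were lower in the mutant than in control ileum. Sox10 of the same list read lower in ileum than in control jejunum without a call (-0.84, adjusted p = 0.0537). Of 4 T cell markers, Cd3g was lower in ileum than in control jejunum, and Cd3g and Cd8a were higher in the mutant than in ileum, with mean levels of 7.0 to 7.56, 7.28 to 7.46 and 5.65 to 6.87 in control jejunum, mutant jejunum and ileum. Of 4 B and plasma cell markers, Cd79a and Jchain were lower in ileum, while Sdc1, which epithelial cells also express, rose in the mutant (0.99) and was higher in ileum (0.86). Of 8 markers of stroma and vessels Lum was higher and Kdr lower in ileum, and of 5 myeloid markers Csf1r was lower there. Apart from Sdc1, no marker of these groups was called in mutant against control jejunum. None of 3 measured pancreatic acinar genes was called in any comparison. Their part in the members' differences was not tested.

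**Figure D2:**
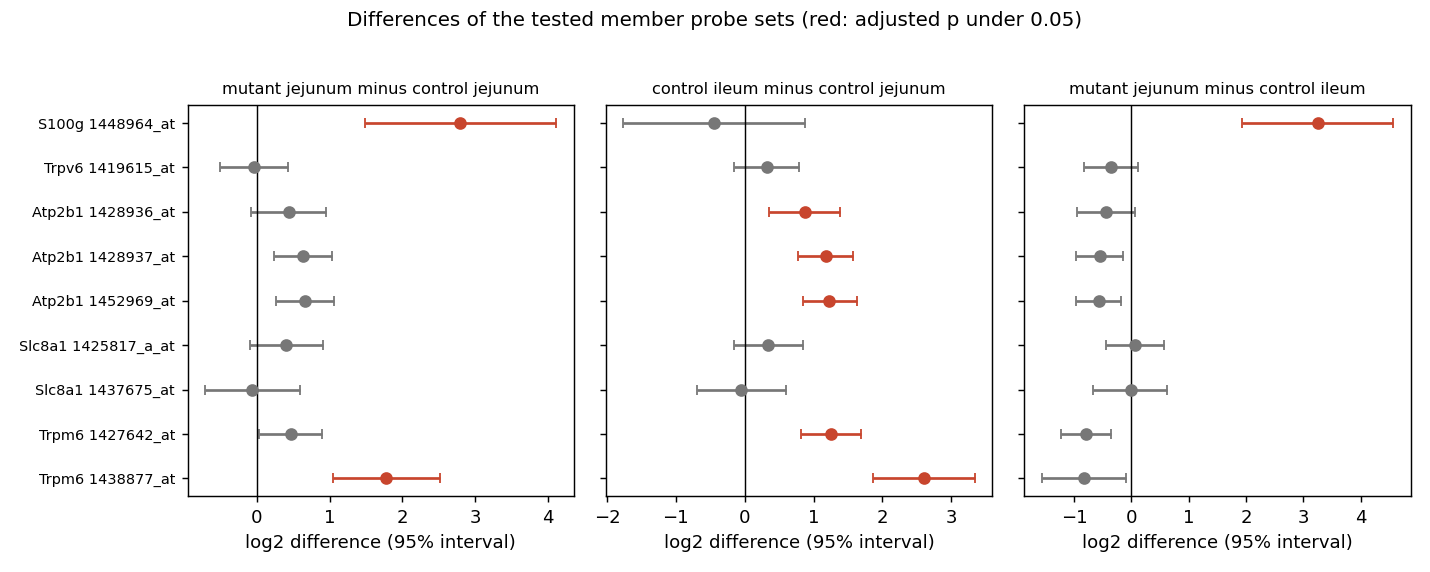
Log2 differences of the 9 tested member probe sets in the 3 comparisons, with 95% intervals from the limma fit and red for an adjusted p under 0.05. In mutant against control jejunum S100g (2.80) and 1 Trpm6 probe set (1.78) are red, in control ileum against control jejunum all 5 probe sets of Atp2b1 and Trpm6, and in mutant jejunum against control ileum S100g alone (3.25).

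The remaining members lay close to the floor of the arrays, as the plot of dim members shows. Trpv6, the apical entry channel, read 4.88, 5.35 and 4.75 on control jejunum arrays, 5.04, 5.02 and 4.79 on mutant arrays, and 5.65, 5.13 and 5.16 on ileal arrays. Its unscaled intensities ran from 11.9 to 28.8 over the 9 arrays, and all 9 values lay within 1 log2 unit. Trpv6 exceeded the filter level on 1 control jejunum array, 2 mutant arrays and 3 ileal arrays. Mutant and control jejunum overlapped, while every mutant array lay below every ileal array (-0.36, 95% interval -0.83 to 0.11, adjusted p = 0.451). Trpv6 differed by -0.04 in mutant against control jejunum (95% interval -0.51 to 0.43, adjusted p = 0.957) and by 0.32 in control ileum against control jejunum (95% interval -0.15 to 0.79, adjusted p = 0.341). At this level, a change in a transcript below what the probe set registers would not be seen.

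Slc8a1, the sodium-calcium exchanger, had 4 probe sets, all with group means between 4.16 and 4.97. The 2 that passed the filter differed by 0.40 and -0.06 in mutant against control jejunum (95% intervals -0.10 to 0.91 and -0.71 to 0.59, adjusted p = 0.412 and 0.954). In control ileum against control jejunum they differed by 0.34 and -0.05 (95% intervals -0.16 to 0.85 and -0.69 to 0.60). The sign of the second (1437675_at) turned under several settings. The first (1425817_a_at) kept a positive sign in both comparisons under the settings run (0.14 to 1.06 in the mutant and 0.10 to 0.90 in the ileum) and was called in none of them. It exceeded the filter level on 0 control jejunum arrays, 2 mutant arrays and 1 ileal array. Passing the filter thus favoured a positive difference from control jejunum, and the settings share the same arrays, so its steady sign is no support for a rise.

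Cyp24a1, which breaks down active vitamin D and is a standard target of its receptor, read 5.06, 4.69 and 4.64 on the control jejunum arrays with the brighter of its 2 probe sets. The mutant arrays read 4.90, 4.15 and 4.12 and the ileal arrays 4.42, 4.85 and 4.87. Only 1 of the 9 arrays exceeded the filter level, and no array did on the dimmer probe set. Cyp27b1, which makes active vitamin D, had group means of 4.18 ± 0.12, 4.04 ± 0.01 and 4.29 ± 0.28 (control jejunum, mutant jejunum, control ileum; SD, n = 3 each), with intensities from 0.350 to 6.81. These 3 probe sets, like the remaining 2 of Slc8a1, were not tested and hold no readable difference between groups.

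**Figure D3:**
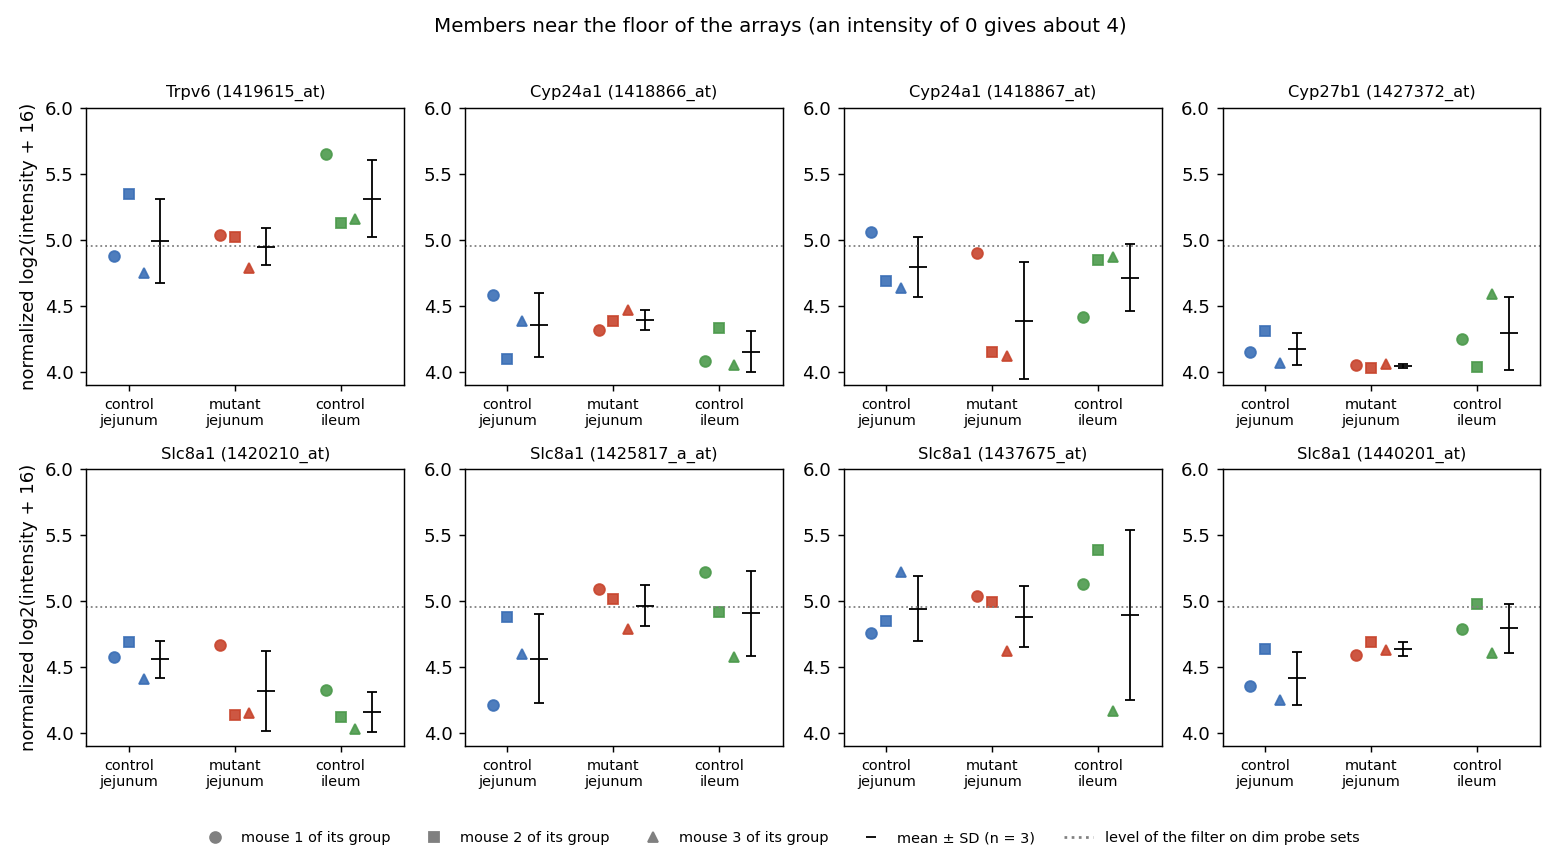
Normalized log2(intensity + 16) of Trpv6, Cyp24a1, Cyp27b1 and Slc8a1 on each of the 9 arrays, 1 panel per probe set, with the mean ± SD of each group (n = 3) and a dotted line at the filter level. Values sit around or below the line at 4.95, and the groups overlap in most panels.

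A further 85 genes of calcium, vitamin D and magnesium handling were listed in 7 groups, of which 63 were measured. They too were chosen with earlier results of these data known. In mutant against control jejunum 2 of them rose and 2 fell, while 4.39% of all measured genes were called. In control ileum against control jejunum 13 were higher and 7 lower, while 17.9% of all genes were called. None was called in mutant jejunum against control ileum, where 3.67% of all genes were. Without control jejunum 2 the first 2 counts were 2 and 13 called genes, and without control ileum 2 the ileal count was 12. With no scaling, 12 were called in mutant jejunum against control ileum, where all tested probe sets shifted by a median of 0.41. With array weights 11 were called in mutant against control jejunum and 6 in mutant jejunum against control ileum.

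The claudins of the paracellular route held 2 of the 4 genes called in the mutant. Cldn2, which forms a pore for cations, read 9.07, 9.0 and 8.71 on control jejunum arrays, 11.10, 11.03 and 11.72 on mutant arrays, and 10.85, 11.35 and 11.45 on ileal arrays. Mutant and ileal arrays overlapped each other and lay above every control jejunum array. Cldn2 rose by 2.36 in the mutant (SE 0.20, adjusted p = 0.000126) and was 2.29 higher in control ileum (adjusted p = 4.22e-05), on both of its probe sets in each case. Cldn15, another channel-forming claudin of the small intestine, read 11.78, 11.72 and 11.63 on control jejunum arrays, 11.04, 11.23 and 10.69 on mutant arrays, and 10.76, 10.83 and 10.88 on ileal arrays. It fell by 0.72 in the mutant (adjusted p = 0.0122), a call that ended without control jejunum 2 (adjusted p = 0.0564), without scaling (adjusted p = 0.153) and under median centring (adjusted p = 0.105). Its ileal difference was -0.88 (adjusted p = 0.00112). The third claudin measured was called in neither comparison.

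Among 13 measured genes of vitamin D activation, carriage and reception, 1 fell in the mutant and none rose, with a median of -0.23 against 0.00 over all genes. Of all measured genes, 4.39% were called in this comparison. The gene that fell was Cyp27a1, a mitochondrial sterol hydroxylase that can act on vitamin D and on bile acid precursors. It read 8.79, 8.95 and 9.18 on control jejunum arrays, 7.35, 7.58 and 7.11 on mutant arrays, and 8.54, 8.29 and 7.64 on ileal arrays. All mutant arrays lay below all others. Cyp27a1 fell by 1.63 in the mutant (SE 0.22, adjusted p = 0.00255). In control ileum it was lower too (-0.82 against control jejunum, adjusted p = 0.0287), a call that ended without control jejunum 2 or 3 or control ileum 2 or 3 (adjusted p from 0.0554 to 0.106). Its difference between mutant jejunum and control ileum was not called (-0.81, adjusted p = 0.0863). In control ileum 4 genes of this group were lower and 1 higher, while 17.9% of all measured genes were called. The largest differences were those of the cytochrome P450 genes Cyp3a11 (-3.26, adjusted p = 0.00156) and Cyp3a13 (-2.20, adjusted p = 0.00389). Vdr, the vitamin D receptor, is named here after its values were seen. Its control jejunum arrays read 10.29, 10.66 and 10.42, its mutant arrays 10.07, 9.93 and 9.50, and its ileal arrays 9.84, 10.09 and 10.03. Every mutant and ileal array lay below every control jejunum array, and neither difference was called (-0.62, adjusted p = 0.0586, and -0.47, adjusted p = 0.0661). Over all tested probe sets, 22.5% and 37.4% did not overlap in these 2 comparisons. The dimmer of the 2 Vdr probe sets was called lower in the ileum. Over 20 settings the adjusted p of the mutant difference of Vdr reached 0.273. That difference was called in 3 of the 20: without mutant jejunum 1 (-0.74, adjusted p = 0.0446), with array weights (-0.52, adjusted p = 0.0346) and with a filter at the 60th percentile (adjusted p = 0.0489). The ileal one was called in 5 of 20 settings: with no scaling (-1.04, adjusted p = 0.00439), under median centring (-0.68, adjusted p = 0.0394), without mutant jejunum 3 (adjusted p = 0.0211), with array weights (adjusted p = 0.0339) and in a fit of only those 2 groups (adjusted p = 0.0329).

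Of 10 measured EF-hand proteins and annexin partners, 1 rose in the mutant and none fell, while 4.39% of all measured genes were called. S100a10, which binds annexin A2 and is known as a partner of Trpv5 and Trpv6 at the membrane, rose by 0.43 (adjusted p = 0.0371), on 1 of its 3 probe sets. That probe set may cross-hybridize, by the _x_ in its name. Its control jejunum arrays read 12.25, 12.09 and 12.38, its mutant arrays 12.56, 12.74 and 12.72, and its ileal arrays 12.89, 12.83 and 12.72. The call ended without any 1 of the 3 control jejunum arrays (adjusted p = 0.0788, 0.156 and 0.0519), without mutant jejunum 2 or 3 (adjusted p = 0.139 and 0.0734) and without control ileum 2 (adjusted p = 0.0651). It also ended with no scaling, median centring, no filter, no intensity trend, a fit of only those 2 groups and the replicate number as a block (adjusted p from 0.0541 to 0.141), so that 8 of 20 settings kept it. In control ileum 4 genes of this group were higher and none lower, while 17.9% of all measured genes were called. The largest difference of the 4 was that of S100a6 (1.14, adjusted p = 0.00399), which gave 0.58 with no scaling (adjusted p = 0.0689). Another of the 4, S100a14 (0.73, adjusted p = 0.0438), was called in 7 of 20 settings.

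Other calcium pumps and exchangers did not change in the mutant by any call (0 of 10 measured), while 4 were higher in control ileum and none lower. Over all measured genes, 4.39% and 17.9% were called in these 2 comparisons. The 2 largest ileal differences were those of the pumps of the endoplasmic reticulum Atp2a1 (1.20, adjusted p = 0.00457, at levels near the filter) and Atp2a3 (1.06, adjusted p = 0.000782), the latter 0.53 with no scaling (adjusted p = 0.0529). Another of the 4, Atp2c1 (0.45), was called in 9 of 20 settings and turned sign with no scaling (-0.05). Atp2a2, not among the 4 because its brightest probe set was not called (0.35, adjusted p = 0.145), was called higher on 3 of its 5 probe sets. Of 12 other genes of magnesium transport none was called in the mutant, and 3 were higher and 2 lower in control ileum. Cnnm4, a basolateral magnesium transporter, read 10.24, 9.62 and 9.23 on control jejunum arrays, 10.73, 10.81 and 9.74 on mutant arrays, and 11.10, 11.41 and 10.94 on ileal arrays. All ileal arrays exceeded all control jejunum arrays, and the ileal difference was 1.46 (adjusted p = 0.00762) on 1 of its 3 probe sets, or 0.90 with no scaling (adjusted p = 0.0510). The related gene Cnnm2 was lower in ileum (-0.99, adjusted p = 0.00362, called on 1 of its 2 probe sets). None of 9 other calcium entry channels and none of 6 receptors for calcium and calcium-regulating hormones was called in any comparison on its brightest probe set. The growth hormone receptor gene Ghr was called higher in ileum than in control jejunum on 1 of its 3 probe sets. Atp2a2, Ghr and the single markers of other cell types are named after their values were seen.

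**Figure D4:**
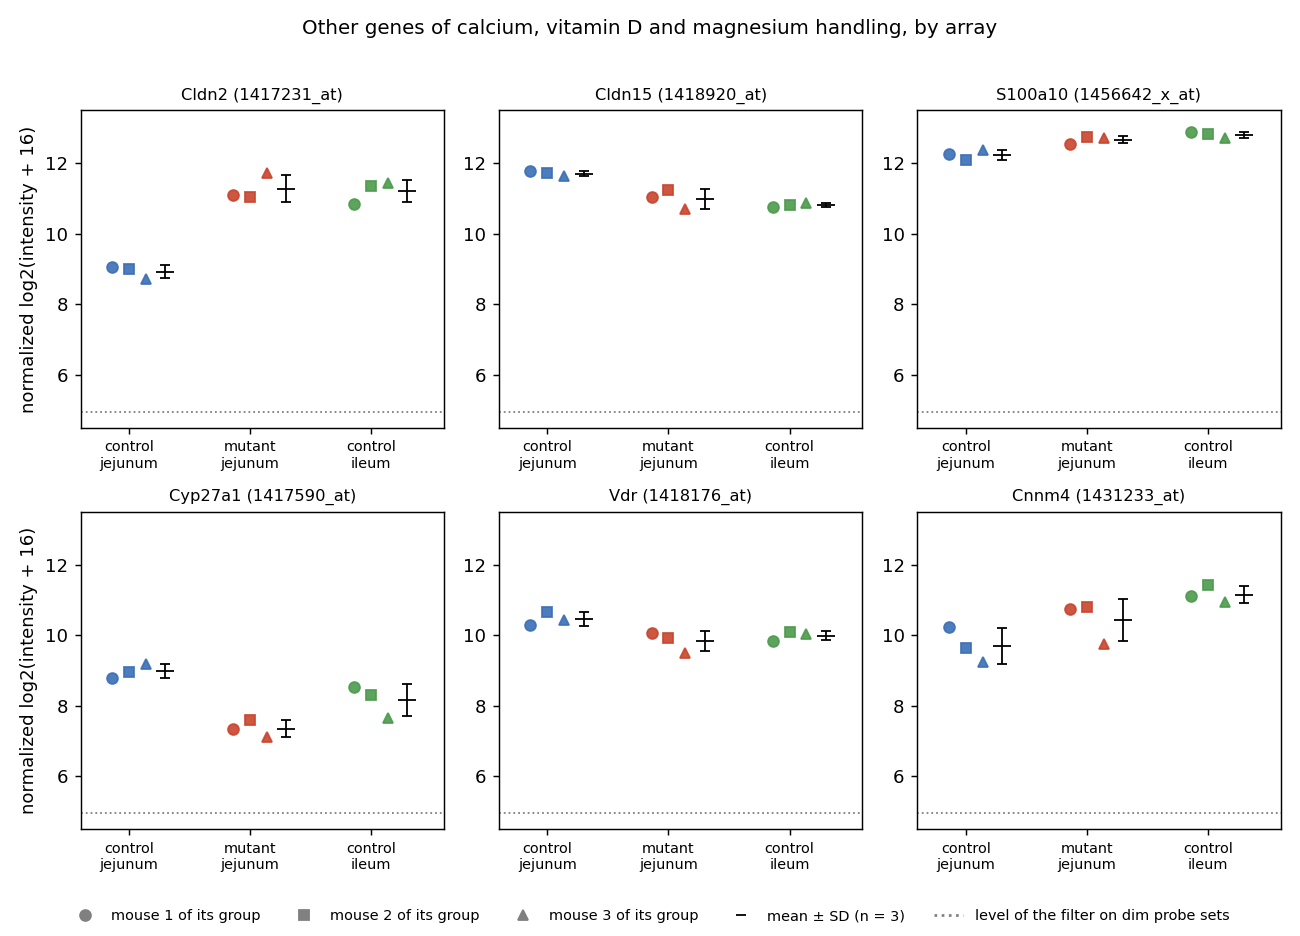
Normalized log2(intensity + 16) of 6 other genes of calcium, vitamin D and magnesium handling on each of the 9 arrays, with the mean ± SD of each group (n = 3) and a dotted line at the filter level. Cldn2 overlaps between mutant jejunum (11.03 to 11.72) and control ileum (10.85 to 11.45), and Cyp27a1 is lowest in mutant jejunum.

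The genes whose levels ran most like those of 3 members over the 9 arrays were picked by Pearson correlation among genes that varied by at least 1 log2 unit. For S100g, among 4136 such genes, the 5 closest were the carboxylesterase gene Ces2b (r = 0.944), the BMP signalling inhibitor Smad6 (0.908), the thymic serine protease gene Prss16 (0.906), the sterol-sensing gene Insig2 (0.896) and the zymogen granule gene Sycn (0.888). Ces2b averaged 9.47 in mutant jejunum, against 7.70 in control jejunum and 7.81 in control ileum. All 5 had their highest mean in mutant jejunum. For Atp2b1 the closest were the calcium pump gene Atp2a1 (0.977), Slc2a13 (0.971), Capsl (0.954), 4930447F24Rik (0.953) and Rasef (0.948). Means stepped up from control jejunum through mutant jejunum to control ileum in all 5. Atp2a1, Capsl and 4930447F24Rik averaged only 4.47, 4.32 and 4.29 in control jejunum, below the filter level and close to the floor. For Trpv6 the closest were Abcc9 (0.948), Speg (0.912), Prss22 (0.906), Six5 (0.891) and Ercc2 (0.884), which follow a probe set that barely left the floor. These correlations over 9 arrays share the same arrays, normalization and groups, and they are descriptions without a test. Because the genes were picked for running like a member, sharing its order of group means follows from the choice and is no separate result.

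**Figure D5:**
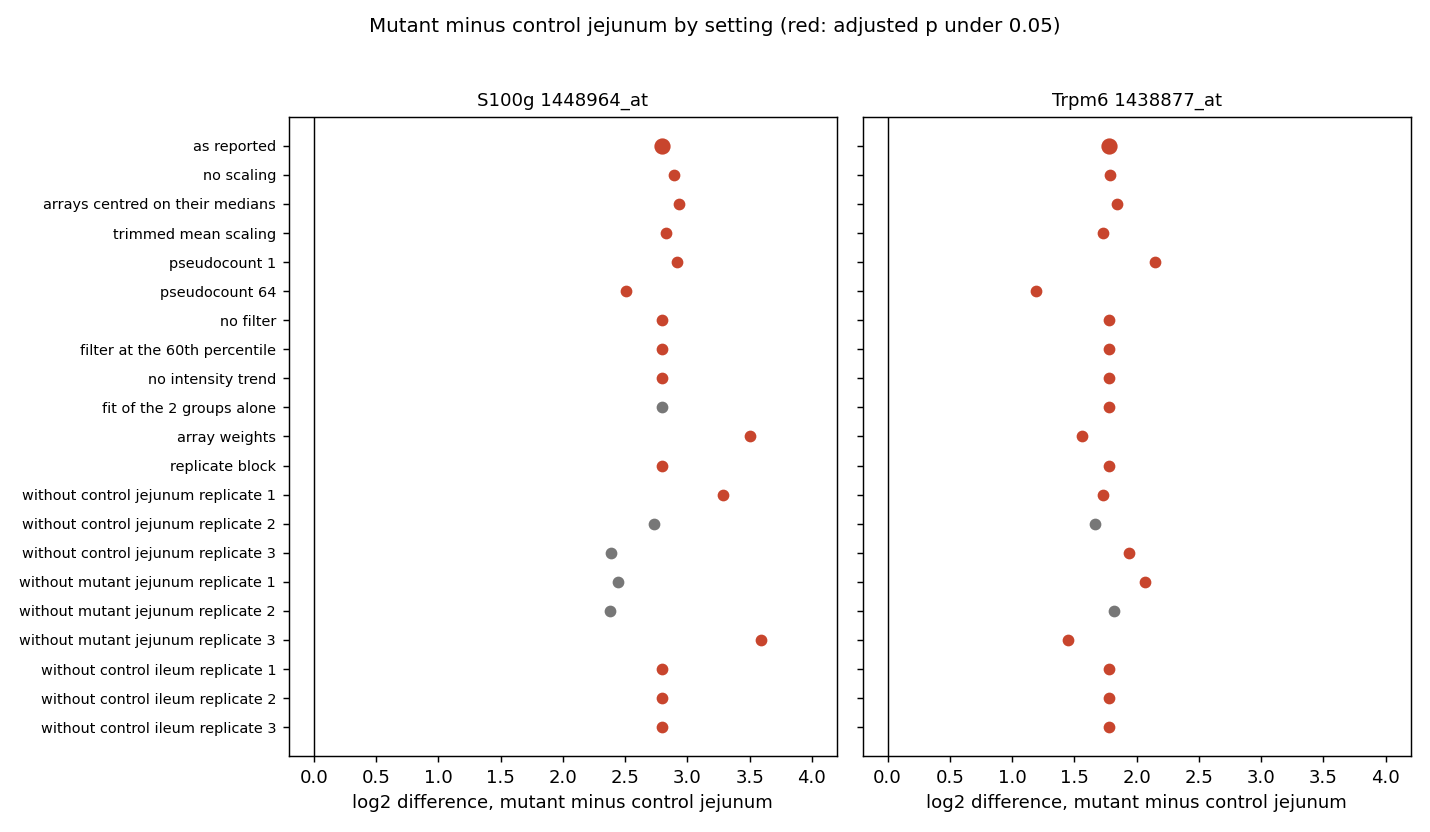
Log2 difference of mutant minus control jejunum for S100g and the brighter Trpm6 probe set under each setting, with red for an adjusted p under 0.05 and grey otherwise. Every point lies to the right of 0, and S100g runs from 2.38 to 3.59. Leaving out single jejunum arrays turns some points grey, as does the fit of the 2 groups alone for S100g.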

How the data were processed

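The deposited intensity values came from GCOS (per the submitters' processing notes), which is Affymetrix's array software, whose version and settings the sources used here do not give. The authors' table holds 1 linear intensity per probe set and array. Groups come from the sample titles. The 64 array controls of 45101 probe sets were left out. Because the arrays differed in brightness, log2(intensity + 16) was quantile-normalized, so that a shift of all transcripts could not be seen. The filter kept 29307 probe sets with 3 or more of 9 arrays above the 40th percentile of all values. Gene names come from the platform's annotation table. The test was that of limma 3.58.1 (R 4.3.3), on 1 fit of all 9 arrays with an intensity trend, two-sided tests and Benjamini-Hochberg adjustment over all probe sets tested. Adjusted p-values come from this model unless an alternative is named with them. Exact permutation of 3 against 3 arrays has 0.10 as its smallest p and was left out. The fit was tested on simulated data. A gene with several tested probe sets was represented by the brightest.

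All members are named, along with listed genes called in the mutant, up to 4 of the largest ileal differences per list, and the 5 genes closest in pattern to S100g, Trpv6 and Atp2b1. The members and lists were chosen with earlier results of these data known. Alternatives were other scalings, pseudocounts, filters, no trend, array weights, 2 groups alone, a replicate block, gene means and leaving out each array.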

Additional observations from a re-analysis of the deposited data

How the results depend on the processing

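The precision is limited by having 3 arrays in a group. Differences of S100g and of the brighter Trpm6 probe set in mutant against control jejunum kept their sign under every alternative run (2.38 to 3.59 and 1.19 to 2.15, and 1.12 for the mean of both Trpm6 probe sets). The ileal calls of Trpm6 and of the brightest and dimmest Atp2b1 probe sets (1428937_at and 1452969_at) held in all 21, and that of the middle one (1428936_at) was lost in 5. The counts of all probe sets called were 1044 in mutant against control jejunum, 4752 in control ileum against control jejunum and 778 in mutant jejunum against control ileum. They became 659, 10632 and 8497 with no scaling. The first and the third became 1998 and 1680 with array weights, and the third 1184 with arrays centred on their medians and 332 with a fit of the 2 groups alone. Leaving out single arrays gave 406 to 987, 2870 to 5955 and 200 to 1042. Rises made up 48.9%, 51.5% and 52.2% of the calls, 49.9%, 5.82% and 98.3% with no scaling, and 62.0%, 36.7% and 79.1% with arrays centred on their medians.

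Member probe sets called in mutant against control jejunum numbered 2, but 4 with arrays centred on their medians, 1 with a fit of the 2 groups alone and 0 to 2 without single arrays. In mutant jejunum against control ileum 1 was called, but 2 with trimmed mean scaling or a pseudocount of 64, 4 with array weights and 0 to 1 without single arrays.

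Several small differences changed sign, and the cause was not tested. With no scaling these were Trpv6 (-0.02), Pdia3 (-0.06) and Atp2c1 (-0.05) in control ileum against control jejunum, and Atp2b1 (0.12 on 1428936_at and 0.07 on 1428937_at), Slc8a1 (0.23) and S100a10 (0.36) in mutant jejunum against control ileum. With arrays centred on their medians they were Slc8a1 (0.04, ileum against control jejunum) and S100a10 (0.05, mutant against ileum), and with a pseudocount of 1 Slc8a1 (0.28, mutant against ileum). With array weights they were Trpv6 (0.05, mutant against control jejunum), Slc8a1 (0.04, ileum against control jejunum) and Cldn2 (-0.12, mutant against ileum). The mean over probe sets gave Slc8a1 0.17, 0.15 and 0.02 in the 3 comparisons. Without single arrays, Trpv6 ran from -0.16 to 0.14 and Slc8a1 (1437675_at) from -0.15 to 0.08 in mutant against control jejunum. In ileum against control jejunum S100g ran from -0.86 to 0.04 and Slc8a1 from -0.29 to 0.32. In mutant against ileum Slc8a1 ran from -0.38 to 0.23 (1437675_at) and from -0.10 to 0.22 (1425817_a_at), and Cldn2 from -0.15 to 0.19.

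The mice of the groups were separate, so replicate numbers are names. Between arrays of different groups, deviations from the group means correlated at -0.0727 to 0.165 for the same number. For other numbers these correlations ran from -0.189 to 0.194. With the number as a replicate block S100g gave adjusted p = 0.0189 and the brighter Trpm6 probe set adjusted p = 0.0299 in the mutant.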
